A study of Mus musculus with 14 samples.

Results

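The glucose, amino acid, monocarboxylate and fatty acid carriers were followed in mouse fetuses as 70 genes, of 15094 with a symbol on the array, measured by the 79 probes of 21582 whose single gene symbol in the platform annotation placed them in solute carrier (Slc) family 1, 2, 3, 5, 6, 7, 16, 27, 36, 38 or 43, leaving out Slc7a11. The genes fell in 11 families, and 7 had more than 1 probe. The rule used the symbols alone and no measured value. It also took in 4 probes of 3 genes named for lying opposite a carrier gene, Slc6a19os, Slc7a6os and Slc36a1os, so that 75 probes of 67 genes were carriers.

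Solute carriers are membrane proteins that move nutrients across the plasma membrane and the membranes of organelles. Each family has a substrate class. Slc2 proteins let glucose and other hexoses pass down their gradient, Slc5 and Slc6 proteins draw their substrates in with sodium, Slc1 proteins carry glutamate and neutral amino acids, and the Slc7 light chains need an Slc3 heavy chain to reach the surface. Slc16 proteins carry lactate, pyruvate and related compounds, Slc27 proteins take up and activate fatty acids, and Slc36, Slc38 and Slc43 proteins carry amino acids. In late gestation such carriers in the placenta and in fetal organs supply the fetus with fuel and building blocks.

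Each of the 14 dual-label arrays held 1 sample, and 7 belonged to each group. Alcohol-fed samples came from timed pregnant C57Bl6 mice exposed to ethanol at about 180 to 200 mg/dl from gestational day 15 to 18, a period given as 4 days in the protocol and 5 days in the sample titles. Pair-fed samples came from C57Bl6 mice given maltose dextrin, also written maltose dextrose, from gestational day 15 to 18. Both groups had free access to food and water before this, up to gestational day 14. Fetuses were delivered by caesarean section on gestational day 19. The other channel of every array held 1 common pool of total RNA from 7 C57Bl6 animals with free access to food and water, also labelled weight matched control. The tissue was not given in the sources used here.

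Values are log2 ratios with each array centred on its median. The likely direction is the sample (Cy5) over the pool (Cy3); the table itself does not state it, and if the ratio ran the other way every "higher" and "lower" against the pool, and the sign of every difference between the groups, would exchange. No array had the dyes swapped. The pool served as 1 control sample, so tests against it leave out the spread among the animals behind it, and both groups share it. The labels do not tie arrays to litters. The p-values therefore speak only of spread among these arrays, part of which may be technical. Brightness over background was unknown, and the number of arrays limits the precision. Errors below are limma standard errors (SE), and a probe was called at a Benjamini-Hochberg adjusted p under 0.05 over the 20876 probes measured on 4 or more arrays in both groups.

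Of 21582 values per array, 2.57% to 14.6% were placeholders and were set missing, with the highest counts on pair-fed arrays 6 and 7. Among the values of the 79 probes 6.15% were missing, and 75 of the 79 could be tested. The tested probes, called carriers below for short, include those of Slc6a19os, Slc36a1os and Slc7a6os (probe 1). They are thus not the 75 carrier probes counted above, and without the opposite-strand genes 72 were tested. Correlations between arrays over all probes lay between 0.257 and 0.692. Marker lists for 7 cell types were measured as well, because a bulk ratio cannot tell fewer cells of a type from less RNA per cell. Over the whole array 8.02% of probes were higher and 15.5% lower than the pool in alcohol-fed fetuses, and 7.86% and 13.5% in pair-fed fetuses. No marker list was tested as a whole. The hepatocyte list averaged between -0.90 and 0.17 on alcohol-fed arrays and between -1.25 and -0.32 on pair-fed arrays, with 2 of 8 probes called lower than the pool in alcohol-fed and 3 in pair-fed fetuses. These were Apoa2 and Rbp4 in both groups, and Ahsg in pair-fed fetuses. Alb, Afp, Apoa1, Serpina1a and Ttr were called in neither group. The median over the list's probes was -0.03 in alcohol-fed and -0.84 in pair-fed fetuses. The neuron list averaged between -0.78 and 0.02 on alcohol-fed arrays and between -0.70 and -0.00360 on pair-fed arrays. Of its 7 probes, 1 was lower in each group and 1 was higher in pair-fed fetuses. These were 2 disagreeing probes of Gad2. The lower averaged -3.32 in alcohol-fed and -4.23 in pair-fed fetuses, and the higher 0.13 in alcohol-fed and 0.89 in pair-fed fetuses. The erythroid list averaged between -2.01 and -0.75 on alcohol-fed arrays and between -2.54 and -0.28 on pair-fed arrays. Of its 7 probes, 2 were lower in alcohol-fed and 3 in pair-fed fetuses. Hba-x and Tfrc each had 1 probe called lower and 1 not called in both groups. The trophoblast list had 3 probes higher and 1 lower of 7 in alcohol-fed fetuses, and 1 each way in pair-fed fetuses. Skeletal muscle probes were called in both directions, 2 higher and 3 lower of 12 in alcohol-fed fetuses and 2 each way in pair-fed fetuses. All higher calls were of 2 Ryr1 probes, averaging 5.91 and 0.73 in alcohol-fed and 4.60 and 0.77 in pair-fed fetuses. The other Ryr1 probes were not called. Lower calls were Myog and Acta1 in both groups, and Actn3 in alcohol-fed fetuses. The intestine list had 1 of 8 probes lower in alcohol-fed fetuses and 0 called by limma in pair-fed fetuses, where 2 had an unadjusted p under 0.05.

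No carrier was called different between alcohol-fed and pair-fed fetuses. In that comparison 0 of 75 probes were called by limma, the lowest adjusted p being 1.00, and 0 had an unadjusted p under 0.05. Over the whole array 0% of 20876 probes were called and 881 had an unadjusted p under 0.05. The median difference, alcohol-fed minus pair-fed, was 0.10 over the carriers and 0.01 over all probes, and the median absolute difference was 0.40 over the carriers and 0.36 over all probes. The 95% interval of the difference lay within a 2-fold change for 6 of 75 carrier probes (8.0%; 8.84% of all probes) and within a 4-fold change for 53 (70.7%; 76.8% of all probes). For the remaining carriers the interval reached past those folds, so that the missing call does not show equal levels. The count stayed at 0 under all alternatives run, with 1 array left out at a time included.

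**Figure D1:**
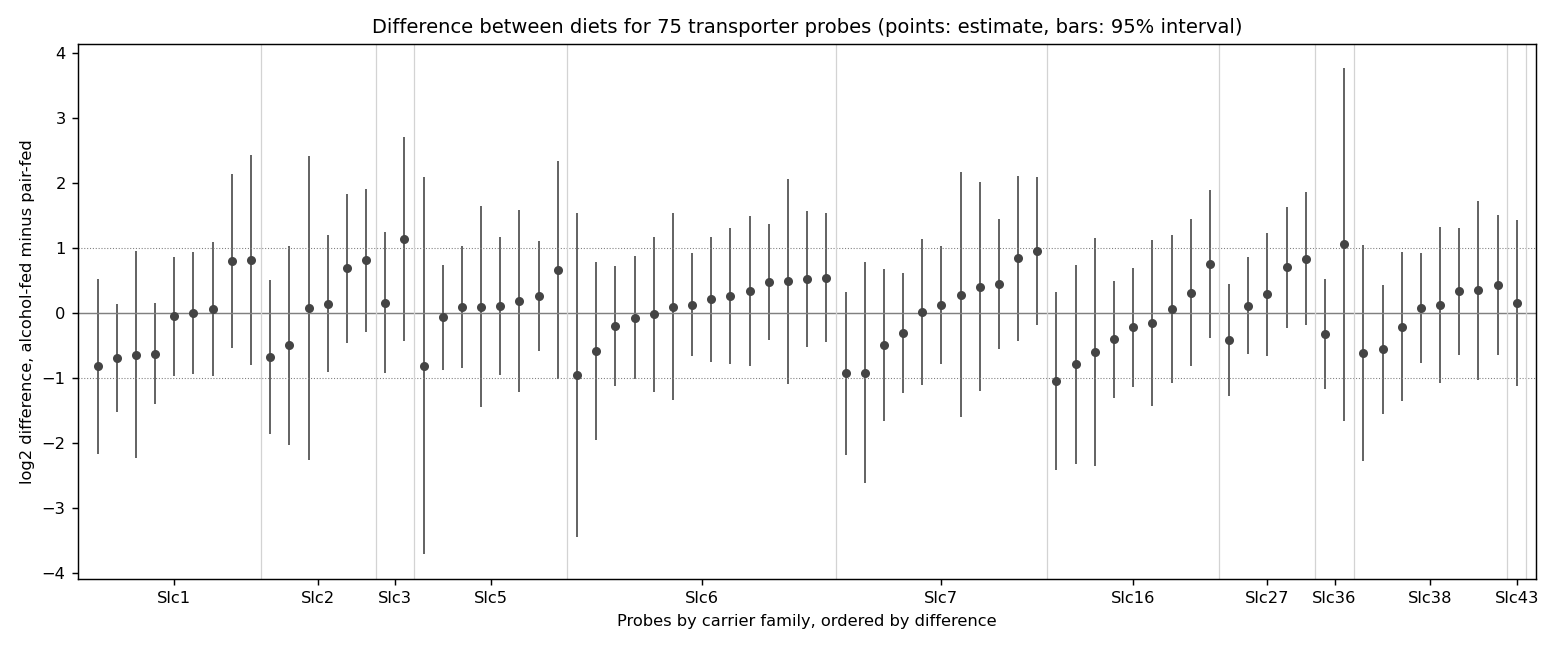
Difference between alcohol-fed and pair-fed fetuses (log2, alcohol-fed minus pair-fed) for the tested carrier probes, with limma 95% intervals. The 75 estimates run between -1.04 and 1.14 and each interval crosses 0.

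The carriers with the smallest p in this comparison show the size of what could not be called. Slc7a10, a small neutral amino acid exchanger, had log2 ratios between -0.24 and 1.28 in alcohol-fed fetuses (median 1.16) and between -2.14 and 1.23 in pair-fed fetuses (median 0.19), a difference of 0.96 ± 0.54 (SE, n = 7 each; 95% interval -0.18 to 2.10; limma unadjusted p = 0.0927). Its groups overlapped, with 2 of 7 alcohol-fed and 3 of 7 pair-fed arrays below 0. Slc27a2, a fatty acid carrier with very long chain acyl-CoA synthetase activity, lay between -1.06 and 1.42 in alcohol-fed fetuses (median 0.46) and between -2.07 and 0.61 in pair-fed fetuses (median -0.63), a difference of 0.84 ± 0.49 (SE, n = 7 each). Slc1a1 probe 2, for a glutamate carrier of neurons and epithelia, differed by -0.69 ± 0.40, and Slc1a4, a serine and alanine exchanger, by -0.63 ± 0.37 (SE, n = 7 each). The other probes among the 10 with the smallest p were Slc16a10 (-1.04 ± 0.65), Slc27a3 (0.70 ± 0.44), Slc7a2 probe 1 (-0.93 ± 0.60), Slc2a1 (0.81 ± 0.52), Slc3a2 (1.14 ± 0.74) and Slc7a15 (0.85 ± 0.60). All 10 had overlapping groups.

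Against the pool, more carriers were called lower than higher in each group. In alcohol-fed fetuses 3 of 75 probes were higher (4.0%, where 8.02% of all tested probes were) and 17 were lower (22.7%, where 15.5% of all probes were). In pair-fed fetuses 5 were higher (6.67%, against 7.86% of all probes) and 15 were lower (20.0%, against 13.5% of all probes). The median log2 ratio of the carriers was -0.31 in alcohol-fed and -0.42 in pair-fed fetuses, where that of all probes was 0.01 in alcohol-fed and -0.03 in pair-fed fetuses. These shares are descriptions set beside the background and no test was made of the list. Without the opposite-strand genes the calls were the same, out of 72 probes. The higher count in alcohol-fed fetuses was 5 with values as deposited (15 lower) and 8 after quantile normalization (17 lower). In pair-fed fetuses 4 were higher as deposited and 6 after quantile normalization, with 13 lower in both. Leaving out alcohol-fed array 6 gave 1 higher call in alcohol-fed fetuses. In pair-fed fetuses, leaving out pair-fed array 2 or 3 gave 3 higher calls and leaving out pair-fed array 5 or 7 gave 2, and the total was 13 without pair-fed array 5.

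Missing values went with low ratios. The 47 carrier probes with a value on all 14 arrays had 3 higher and 6 lower calls in alcohol-fed fetuses (6.38% and 12.8%; 10.7% and 10.7% of the 14666 such probes on the array), with a median of 0.16 where all such probes had 0.23. In pair-fed fetuses they had 5 higher and 7 lower (10.6% and 14.9%; 10.6% and 10.6% of all such probes), with a median of -0.21 where all such probes had 0.16. The 28 carrier probes with at least 1 missing value had 0 higher and 11 lower calls in alcohol-fed fetuses (39.3% lower; 26.9% of the 6210 such probes on the array) and 0 higher and 8 lower in pair-fed fetuses (28.6%; 20.2% of all such probes). Their medians were -1.06 in alcohol-fed and -0.87 in pair-fed fetuses, where all such probes had -0.67 in alcohol-fed and -0.57 in pair-fed fetuses.

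**Figure D2:**
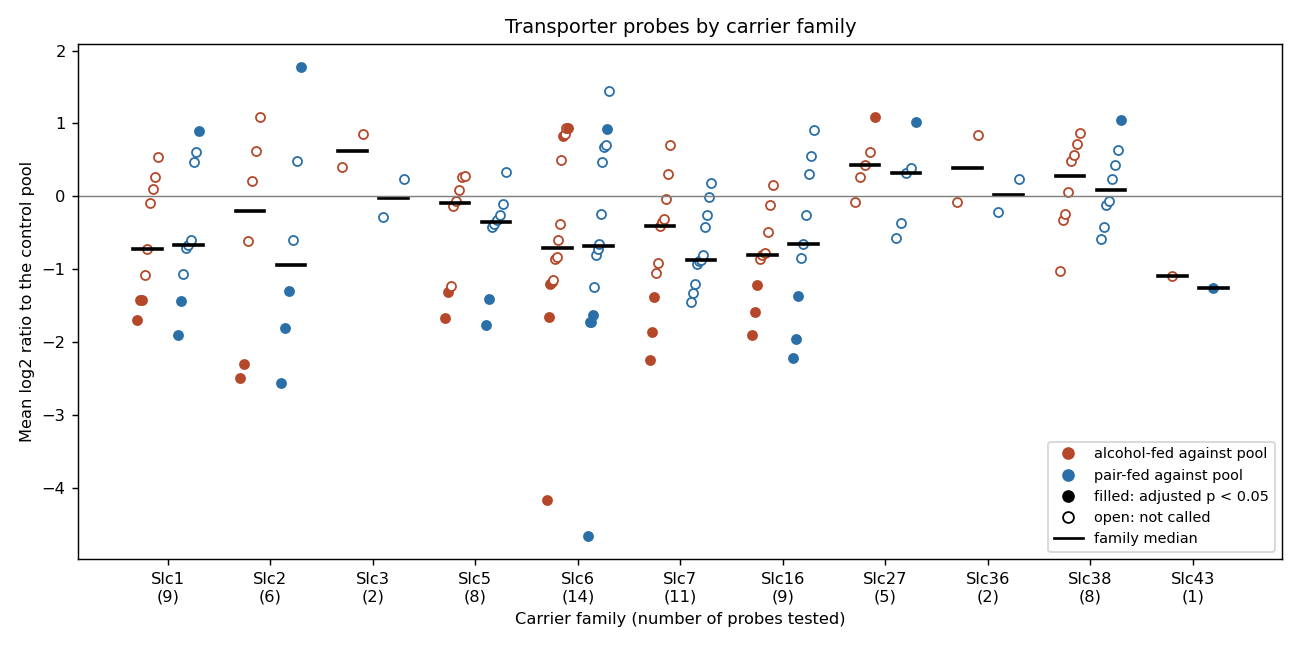
Mean log2 ratio to the pool of each tested carrier probe by Slc family number, alcohol-fed to the left of pair-fed, with called probes filled and the family median as a bar. The lowest points are those of Slc6a9, at -4.17 in alcohol-fed and -4.66 in pair-fed fetuses. The medians of families 27, 36 and 38 lie above 0 in both groups.

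Family 16, which includes the lactate and pyruvate carriers, gave the same 3 calls in both groups, of 9 probes tested. All 3 were lower than the pool, as were 15.5% of all probes in alcohol-fed and 13.5% in pair-fed fetuses. No family was tested as a whole. Slc16a1, the widespread proton-linked carrier of lactate, pyruvate and ketone bodies, had log2 ratios between -2.65 and -0.18 in alcohol-fed fetuses (median -1.28, 7 arrays) and between -1.78 and -1.09 in pair-fed fetuses (median -1.28, 6 arrays with a value). Every array with a value was below 0 and the groups overlapped. The mean was -1.58 ± 0.29 in alcohol-fed fetuses (3.00-fold lower than the pool, adjusted p = 0.00115) and -1.36 ± 0.32 in pair-fed fetuses (2.57-fold lower, adjusted p = 0.00646). Slc16a3, the lactate exporter of glycolytic cells, lay between -2.34 and -0.0440 in alcohol-fed fetuses (median -1.52) and between -3.98 and -0.83 in pair-fed fetuses (median -1.72, 6 arrays). It was below 0 on every array with a value, with a mean of -1.21 ± 0.37 in alcohol-fed fetuses (adjusted p = 0.0256) and -1.96 ± 0.40 in pair-fed fetuses (adjusted p = 0.00248). Slc16a8, the lactate carrier of the retinal pigment epithelium and choroid plexus, lay between -3.07 and -1.33 in alcohol-fed fetuses (median -1.58) and between -4.34 and -0.70 in pair-fed fetuses (median -2.04). It was below 0 on all 14 arrays, with a mean of -1.91 ± 0.38 in alcohol-fed fetuses (3.75-fold lower, adjusted p = 0.00189) and -2.22 ± 0.38 in pair-fed fetuses (4.65-fold lower, adjusted p = 0.000540). Alcohol-fed minus pair-fed, the 95% intervals were -1.13 to 0.69 for Slc16a1, -0.39 to 1.89 for Slc16a3 and -0.82 to 1.45 for Slc16a8. The alcohol-fed call of Slc16a3 ended without alcohol-fed array 1, 4, 5 or 6 (adjusted p up to 0.0802) and with values as deposited (0.0823).

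The start regions of these 3 carriers are shown because all 3 were called lower in both groups. They run from 250 bases before to 50 after the annotated start, 5′ to 3′ along the gene, from RefSeq on GRCm38.p6. Capitals mark matches, on either strand, to an E-box (CACGTG), a GC box (GGGCGG), the letters TATAAA found near many starts or the core of the amino acid response element (TGATGNAA). Slc16a1 lies on the plus strand at chr3:104638414-104638713, Slc16a3 on the plus strand at chr11:120948817-120949116 and Slc16a8 on the minus strand at chr15:79254699-79254998.
Slc16a1: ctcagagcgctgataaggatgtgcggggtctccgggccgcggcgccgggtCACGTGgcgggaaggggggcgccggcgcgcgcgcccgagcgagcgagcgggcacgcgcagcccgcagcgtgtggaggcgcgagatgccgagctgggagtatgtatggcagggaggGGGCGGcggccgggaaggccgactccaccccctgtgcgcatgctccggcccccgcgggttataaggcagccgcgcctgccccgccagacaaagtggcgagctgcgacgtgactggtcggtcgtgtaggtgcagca
Slc16a3: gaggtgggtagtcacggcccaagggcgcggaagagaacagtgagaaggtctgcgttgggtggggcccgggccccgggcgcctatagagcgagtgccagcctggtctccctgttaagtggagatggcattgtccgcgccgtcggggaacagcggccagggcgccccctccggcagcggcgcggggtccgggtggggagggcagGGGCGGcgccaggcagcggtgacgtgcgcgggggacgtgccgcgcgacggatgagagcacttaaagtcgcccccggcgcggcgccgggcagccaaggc
Slc16a8: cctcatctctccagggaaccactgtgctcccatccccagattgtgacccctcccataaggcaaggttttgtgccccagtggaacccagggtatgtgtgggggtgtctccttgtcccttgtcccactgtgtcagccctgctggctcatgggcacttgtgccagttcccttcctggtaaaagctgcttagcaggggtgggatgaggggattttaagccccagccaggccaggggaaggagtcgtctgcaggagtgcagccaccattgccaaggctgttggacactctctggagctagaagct
The Slc16a1 window held 1 E-box and 1 GC box, the Slc16a3 window 1 GC box, and the Slc16a8 window none of the motifs. Windows were found for 54 of the 70 genes, 71 windows in all. An E-box was in 9.86% of them and in 7.15% of all 32851 windows, a GC box in 50.7% of them and 35.7% of all windows, TATAAA in 12.7% of them and 13.6% of all windows, and the TGATGNAA core in 5.63% of them and 3.97% of all windows. The median GC content was 58.0% in the carriers' windows and 52.7% in all windows. A match is a description of the letters and not of a bound site.

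The remaining 6 family 16 probes were not called in either group. Slc16a10, which carries aromatic amino acids, had a mean of -0.12 ± 0.46 in alcohol-fed fetuses, where array 6 read -3.97 and the other 6 lay between -0.12 and 1.40, and 0.92 ± 0.46 in pair-fed fetuses (n = 7 each). All 7 pair-fed arrays were above 0, between 0.13 and 1.57. Without alcohol-fed array 6 the pair-fed value passed the threshold (adjusted p = 0.0239). The family median was -0.81 in alcohol-fed and -0.65 in pair-fed fetuses.

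The glucose carriers of family 2, with 6 probes tested, had 0 higher and 2 lower calls in alcohol-fed fetuses. In pair-fed fetuses they had 1 higher and 3 lower. Of all probes, 8.02% were higher and 15.5% lower in alcohol-fed fetuses, and 7.86% and 13.5% in pair-fed fetuses. Slc2a2, the low-affinity glucose carrier of liver, pancreatic islets, kidney and gut, had log2 ratios between -3.97 and -1.47 in alcohol-fed fetuses (median -1.90, 7 arrays) and between -3.57 and -0.37 in pair-fed fetuses (median -1.64, 4 arrays with a value). All 11 values were below 0. The mean was -2.30 ± 0.43 in alcohol-fed fetuses (4.94-fold lower, adjusted p = 0.00179) and -1.81 ± 0.57 in pair-fed fetuses (3.50-fold lower, adjusted p = 0.0363), beside the hepatocyte list values given above, whose part in this was not tested. Slc2a8, a glucose carrier that stays mostly on inner membranes, had means of -2.49 ± 0.69 in alcohol-fed fetuses (6 arrays, -5.33 to 0.66, adjusted p = 0.0198) and -2.56 ± 0.84 in pair-fed fetuses (4 arrays, -3.82 to -1.24, adjusted p = 0.0446). Slc2a3, the high-affinity glucose carrier of neurons and placenta, was lower in pair-fed fetuses at -1.30 ± 0.39 (adjusted p = 0.0243), with all 7 arrays below 0. It averaged -0.61 ± 0.39 in alcohol-fed fetuses (adjusted p = 0.256), where 5 of 7 arrays were below 0. Slc2a1, the carrier of red cells and of the blood-tissue barriers, averaged 0.21 ± 0.35 in alcohol-fed and -0.60 ± 0.38 in pair-fed fetuses, and neither was called. The family median was -0.20 in alcohol-fed and -0.95 in pair-fed fetuses.

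Slc2a5 was the glucose family's called increase. This fructose carrier lay between 0.0510 and 2.08 in alcohol-fed fetuses (median 0.87) and between -0.00900 and 3.30 in pair-fed fetuses (median 2.14). It was above 0 on all 7 alcohol-fed and on 6 of 7 pair-fed arrays. The mean was 1.09 ± 0.40 in alcohol-fed fetuses (2.13-fold, adjusted p = 0.0548, not called) and 1.77 ± 0.40 in pair-fed fetuses (3.41-fold higher, adjusted p = 0.00482). The alcohol-fed value passed without alcohol-fed array 7 or pair-fed array 1, 4 or 6 (adjusted p down to 0.0430) and under 6 other settings (down to 0.0163). The pair-fed call ended without the 2 arrays with most placeholders (0.0534). Its window, on the plus strand of GRCm38.p6 at chr4:150119094-150119393, is shown with the same marking because this was the highest called ratio, and it held 3 GC boxes.
Slc2a5: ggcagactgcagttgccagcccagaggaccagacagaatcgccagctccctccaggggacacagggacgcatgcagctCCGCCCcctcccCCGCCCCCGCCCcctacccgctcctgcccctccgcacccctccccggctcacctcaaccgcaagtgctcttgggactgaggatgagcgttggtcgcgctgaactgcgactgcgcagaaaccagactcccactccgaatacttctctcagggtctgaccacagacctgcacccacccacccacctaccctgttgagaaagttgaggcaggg

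The Slc2a8 calls and the pair-fed call of Slc2a2 had 4 to 6 arrays with a value, whereas the alcohol-fed call of Slc2a2 held in every fit that tested it. For Slc2a8 the alcohol-fed call ended without alcohol-fed array 2, 5 or 6 (adjusted p up to 0.0635) and the pair-fed call without alcohol-fed array 4 or pair-fed array 5 (up to 0.0543) and under 6 other settings (up to 0.142). The pair-fed call of Slc2a3 ended without pair-fed array 5 or 6 (up to 0.0686), with the replicate block or without both of the arrays richest in placeholders (up to 0.0921), and that of Slc2a2 ended with values as deposited, with placeholders kept or with the replicate block (up to 0.137). Slc2a4, the insulin-responsive glucose carrier of muscle and fat, had too few values to test. Its values lay between -3.06 and 0.95 on 5 alcohol-fed arrays and between -0.38 and 6.92 on 3 pair-fed arrays.

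Sodium-coupled carriers of family 5 gave 2 lower calls of 8 probes tested in each group, in the same genes. Over the whole array 15.5% of probes were lower in alcohol-fed and 13.5% in pair-fed fetuses. Slc5a1, which absorbs glucose and galactose in gut and kidney, lay between -2.01 and 0.10 in alcohol-fed fetuses (median -1.52) and between -2.63 and -0.28 in pair-fed fetuses (median -1.40). The groups overlapped and 13 of 14 arrays were below 0. Its mean was -1.31 ± 0.32 in alcohol-fed fetuses (2.48-fold lower, adjusted p = 0.00746) and -1.40 ± 0.32 in pair-fed fetuses (2.65-fold lower, adjusted p = 0.00498). Slc5a3, the myo-inositol carrier of osmotic adaptation, averaged -1.67 ± 0.50 in alcohol-fed fetuses (7 arrays, -2.24 to -0.74, adjusted p = 0.0236) and -1.77 ± 0.54 in pair-fed fetuses (6 arrays, -3.72 to 1.21, adjusted p = 0.0275). The Slc5a3 call ended in alcohol-fed fetuses without alcohol-fed array 1, 2 or 4 (adjusted p up to 0.0555) and in pair-fed fetuses without pair-fed array 2, 3, 5 or 7 (up to 0.0997). Slc5a2, the main glucose carrier of the renal proximal tubule, averaged 0.08 ± 0.45 in alcohol-fed and -0.10 ± 0.48 in pair-fed fetuses and was not called. Of the kidney tubule markers 4 of 6 probes were lower in both groups, with list means between -1.92 and -0.63 on alcohol-fed and between -1.57 and -0.17 on pair-fed arrays. Their part in the carrier values was not tested.

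Glutamate and neutral amino acid carriers of family 1 had 3 lower calls of 9 probes tested in alcohol-fed fetuses. In pair-fed fetuses 2 were lower and 1 higher. The shares of all probes were 15.5% lower in alcohol-fed fetuses, and 13.5% lower and 7.86% higher in pair-fed fetuses. Slc1a6, the glutamate carrier of cerebellar Purkinje cells, was called in both. It lay between -2.41 and 0.0875 in alcohol-fed fetuses (median -1.24, 7 arrays) and between -1.94 and -0.48 in pair-fed fetuses (median -1.58, 6 arrays). Its mean was -1.43 ± 0.30 in alcohol-fed fetuses (2.69-fold lower, adjusted p = 0.00330) and -1.43 ± 0.33 in pair-fed fetuses (2.69-fold lower, adjusted p = 0.00592). The difference had a 95% interval of -0.94 to 0.94, and both calls held without any 1 array. Slc1a2, the main glutamate carrier of astrocytes, averaged -1.70 ± 0.51 in alcohol-fed fetuses (-4.19 to 1.96, adjusted p = 0.0248) and -1.06 ± 0.55 in pair-fed fetuses (6 arrays, adjusted p = 0.176). Its alcohol-fed call ended without alcohol-fed array 2, 4, 5, 6 or 7 (adjusted p up to 0.0801). Slc1a4 was higher in pair-fed fetuses at 0.90 ± 0.26 (adjusted p = 0.0216), with 6 of 7 arrays above 0, and averaged 0.27 ± 0.26 in alcohol-fed fetuses. That call ended without pair-fed array 4 or 7 (up to 0.0634), under array weights and when pair-fed arrays 6 and 7 were dropped (up to 0.151). Slc1a5, a glutamine exchanger, averaged -0.72 ± 0.31 in alcohol-fed and -0.67 ± 0.31 in pair-fed fetuses and missed the threshold (adjusted p = 0.0981 in alcohol-fed and 0.130 in pair-fed fetuses), passing in pair-fed fetuses without pair-fed array 3 (0.0453) and in alcohol-fed fetuses with array weights (0.0496).

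In family 1, probes of the same gene disagreed for Slc1a1 and for Slc1a3. Slc1a1 probe 1 was lower in pair-fed fetuses at -1.90 ± 0.54 (6 arrays, -5.34 to -0.18, adjusted p = 0.0207) and averaged -1.08 ± 0.54 in alcohol-fed fetuses, whereas probe 2 averaged -0.09 ± 0.28 in alcohol-fed and 0.61 ± 0.28 in pair-fed fetuses, neither called. The probe 1 call ended without pair-fed array 2 (adjusted p = 0.0583). Of 3 probes for Slc1a3, the astroglial glutamate carrier, probe 2 was lower in alcohol-fed fetuses at -1.42 ± 0.43 (adjusted p = 0.0262). Probe 1 averaged 0.10 ± 0.45 and probe 3 averaged 0.53 ± 0.35 there, and none of the 3 was called in pair-fed fetuses. The probe 2 call ended without alcohol-fed array 2, 3, 5 or 6 (up to 0.0752).

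**Figure D3:**
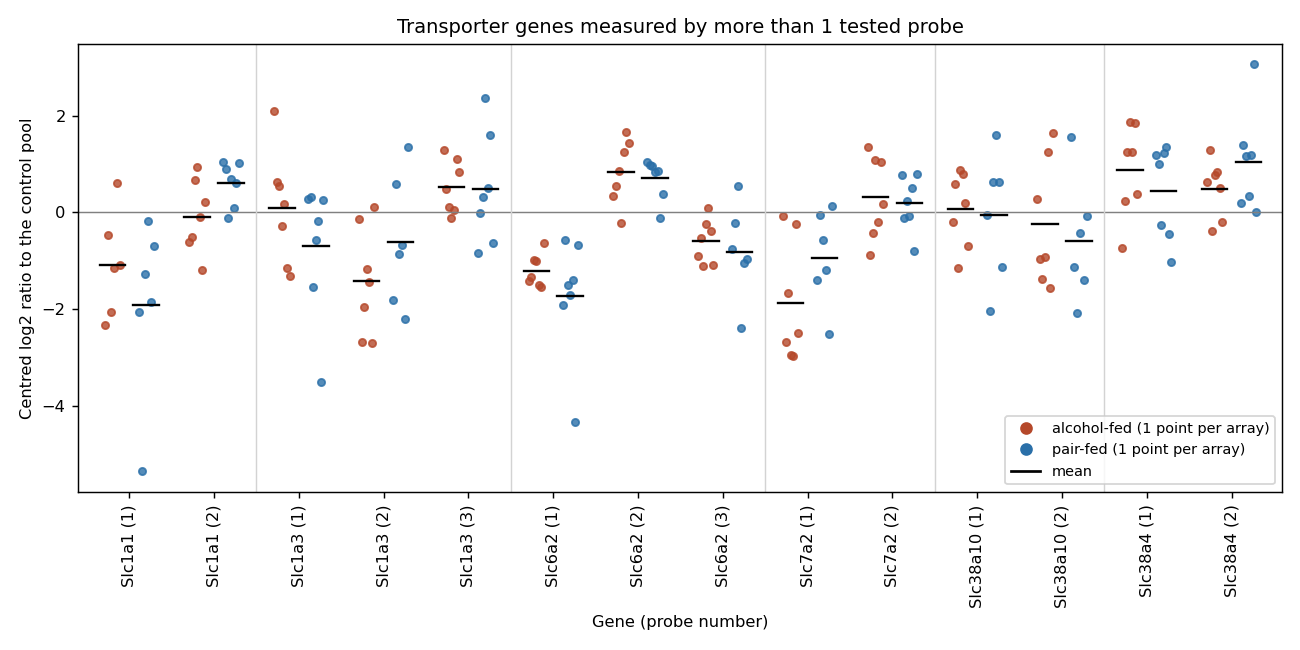
Log2 ratio to the pool on each array for the 6 carrier genes with more than 1 tested probe, alcohol-fed to the left of pair-fed, with the group mean as a bar. In at least 1 group the means of different probes of Slc1a1, Slc1a3, Slc6a2, Slc7a2 and Slc38a10 lie on opposite sides of 0; neither Slc38a10 probe was called.

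Family 6, which carries neurotransmitters, taurine, glycine and other amino acids, held the lowest mean of all carriers. Of 14 probes tested, 2 were higher and 4 lower in alcohol-fed fetuses, and 1 higher and 4 lower in pair-fed fetuses. The shares of all probes were 8.02% higher and 15.5% lower in alcohol-fed fetuses, and 7.86% and 13.5% in pair-fed fetuses. Slc6a9, the glycine carrier of glia and red cell precursors, lay between -5.37 and -3.34 in alcohol-fed fetuses (median -4.15, 7 arrays) and between -8.31 and -2.57 in pair-fed fetuses (median -4.02, 6 arrays). All 13 values were at least 2.57 below 0. The mean was -4.17 ± 0.51 in alcohol-fed fetuses (18.0-fold lower than the pool, adjusted p = 1.80e-05) and -4.66 ± 0.55 in pair-fed fetuses (25.2-fold lower, adjusted p = 1.36e-05). Alcohol-fed minus pair-fed, the 95% interval was -1.10 to 2.07, and both calls held without any 1 array. Beside it, 2 of 7 erythroid marker probes were lower in alcohol-fed and 3 of 7 in pair-fed fetuses. The list averaged between -2.01 and -0.75 on alcohol-fed and between -2.54 and -0.28 on pair-fed arrays. The lower probes were 1 of Hba-x and 1 of Tfrc in both groups, and Hbb-bh1 in pair-fed fetuses. The other Hba-x probe averaged 0.43 in alcohol-fed and 0.13 in pair-fed fetuses, not called. The other Tfrc probe averaged 0.12 in alcohol-fed and -0.03 in pair-fed fetuses, not called. The part of these markers in the Slc6a9 values was not tested. Of its 3 annotated start windows, windows 2 and 3 held none of the motifs. The first, on the plus strand of GRCm38.p6 at chr4:117835008-117835307, is shown because this is the carriers' largest departure from the pool, and it held 2 GC boxes.
Slc6a9: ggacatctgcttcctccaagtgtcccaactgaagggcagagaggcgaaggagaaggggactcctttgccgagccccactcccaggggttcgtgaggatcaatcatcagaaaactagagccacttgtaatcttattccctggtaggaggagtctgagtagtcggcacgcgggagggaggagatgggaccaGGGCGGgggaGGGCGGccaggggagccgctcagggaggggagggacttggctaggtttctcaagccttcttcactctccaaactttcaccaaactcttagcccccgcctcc

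Other family 6 carriers were lower in both groups. Slc6a6, the taurine carrier, lay between -1.87 and -0.47 in alcohol-fed fetuses (median -1.03) and between -3.34 and 0.18 in pair-fed fetuses (median -1.80), with 13 of 14 arrays below 0. Its mean was -1.18 ± 0.33 in alcohol-fed fetuses (adjusted p = 0.0174) and -1.72 ± 0.33 in pair-fed fetuses (adjusted p = 0.00152). Slc6a11, a GABA carrier of astrocytes, averaged -1.65 ± 0.40 in alcohol-fed fetuses (adjusted p = 0.00771) and -1.63 ± 0.40 in pair-fed fetuses (adjusted p = 0.00884), with 13 of 14 arrays below 0. Its pair-fed call ended without the 2 arrays with most placeholders (0.0838). Slc6a4, the serotonin carrier, averaged -1.15 ± 0.46 in alcohol-fed and -1.25 ± 0.50 in pair-fed fetuses and was called in neither (adjusted p = 0.0791 in alcohol-fed and 0.0835 in pair-fed fetuses), though the pair-fed value passed without alcohol-fed array 6 (0.0424) and with the replicate block (0.0301). Slc6a3, the dopamine carrier, averaged -0.83 ± 0.46 in alcohol-fed and -0.24 ± 0.46 in pair-fed fetuses, not called.

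The 3 probes of Slc6a2, the norepinephrine carrier, split by direction. Probe 1 lay between -1.55 and -0.63 in alcohol-fed fetuses and between -4.33 and -0.58 in pair-fed fetuses, below 0 on all 14 arrays. It averaged -1.20 ± 0.35 in alcohol-fed fetuses (adjusted p = 0.0205; 0.0597 with values as deposited) and -1.72 ± 0.35 in pair-fed fetuses (adjusted p = 0.00230). Probe 2 was above 0 on 6 of 7 arrays in each group, at 0.83 ± 0.27 in alcohol-fed fetuses (higher, adjusted p = 0.0320) and 0.70 ± 0.27 in pair-fed fetuses (adjusted p = 0.0680, not called). Probe 3 averaged -0.59 ± 0.31 in alcohol-fed and -0.81 ± 0.33 in pair-fed fetuses, not called. No direction can be given for Slc6a2 as a gene. The alcohol-fed call of probe 2 ended without alcohol-fed array 3, 5, 6 or 7 (up to 0.0857) and with the replicate block (0.0751). In pair-fed fetuses probe 2 passed without pair-fed array 6 (0.0430) and under 3 other settings (down to 0.0285), and probe 3 passed without pair-fed array 3 (0.0341).

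Slc6a19 and Slc6a20b had 1 higher call each, in different groups. Slc6a19, which absorbs neutral amino acids in gut and kidney, was higher in alcohol-fed fetuses at 0.94 ± 0.30 (-0.45 to 1.79, 6 of 7 arrays above 0, adjusted p = 0.0299) and averaged 0.47 ± 0.30 in pair-fed fetuses (-0.17 to 1.36). The call ended without alcohol-fed array 1, 2, 5 or 6 (up to 0.0861). The opposite-strand gene Slc6a19os averaged 0.94 ± 0.35 in alcohol-fed fetuses (adjusted p = 0.0605) and 0.67 ± 0.35 in pair-fed fetuses, passing in alcohol-fed fetuses without alcohol-fed array 5 (0.0257) or under 2 other settings. Which strand either probe reads was not given in the sources used here, so these values may share signal. Slc6a20b, an imino acid carrier, was higher in pair-fed fetuses at 0.93 ± 0.32 (adjusted p = 0.0453) and averaged 0.86 ± 0.32 in alcohol-fed fetuses (adjusted p = 0.0578). The pair-fed call ended without alcohol-fed array 2 or 7 or pair-fed array 1, 2, 3, 5, 6 or 7 (up to 0.108) and under 4 other settings (up to 0.104). The alcohol-fed value passed without alcohol-fed array 4 or 5 (down to 0.0376) and under 3 other settings (down to 0.0331).

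Cationic and neutral amino acid exchangers of family 7 had 3 lower calls of 11 probes tested in alcohol-fed fetuses (15.5% of all probes were lower) and 0 by limma in pair-fed fetuses (5 with an unadjusted p under 0.05, and 13.5% of all probes lower), where the family median was -0.88, against -0.41 in alcohol-fed fetuses. Slc7a2, the arginine and lysine carrier of liver and activated macrophages, had a probe 1 between -2.97 and -0.0690 in alcohol-fed fetuses (median -2.48, 7 arrays) and between -2.51 and 0.14 in pair-fed fetuses (median -0.89, 6 arrays). It averaged -1.86 ± 0.40 in alcohol-fed fetuses (3.63-fold lower, adjusted p = 0.00398) and -0.93 ± 0.44 in pair-fed fetuses (adjusted p = 0.134), a difference of -0.93 with a 95% interval of -2.19 to 0.33. Probe 2 of Slc7a2 averaged 0.31 ± 0.30 in alcohol-fed and 0.19 ± 0.30 in pair-fed fetuses, so the gene has no single direction. Slc7a7, the light chain that exports cationic amino acids from epithelia, averaged -2.25 ± 0.55 in alcohol-fed fetuses (-3.99 to 0.25, adjusted p = 0.00811) and -1.33 ± 0.59 in pair-fed fetuses (6 arrays, -3.11 to 2.25, adjusted p = 0.115). Slc7a13, a light chain of the kidney, averaged -1.38 ± 0.39 in alcohol-fed fetuses (all 7 arrays below 0, adjusted p = 0.0182) and -0.89 ± 0.39 in pair-fed fetuses (adjusted p = 0.114). The kidney tubule marker values stand with Slc5a1 above.

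A call in alcohol-fed fetuses beside none in pair-fed fetuses does not establish a difference between them, nor equal levels. For Slc7a7 the 95% interval of the difference was -2.61 to 0.78 and for Slc7a13 it was -1.66 to 0.67. The alcohol-fed call of Slc7a13 ended without alcohol-fed array 1 (adjusted p = 0.0577). Without pair-fed array 6, or under 2 other settings, Slc7a7 (0.00962) and Slc7a13 (0.0289) were called in pair-fed fetuses too. Slc7a5, the large neutral amino acid light chain, averaged -0.35 ± 0.34 in alcohol-fed and -0.80 ± 0.34 in pair-fed fetuses. Its pair-fed array 2 read 1.33 where the other 6 lay between -1.65 and -0.59, and without that array the pair-fed value was called (adjusted p = 0.0132). Slc7a8, another large neutral light chain, averaged -0.41 ± 0.38 in alcohol-fed and -0.42 ± 0.38 in pair-fed fetuses, and Slc7a1, the widespread cationic carrier, averaged -0.91 ± 0.61 in alcohol-fed and -1.20 ± 0.66 in pair-fed fetuses. None of the 3 was called, nor was either Slc3 heavy chain. Slc3a2, the heavy chain of most family 7 exchangers, averaged 0.85 ± 0.53 in alcohol-fed fetuses, above 0 on all 7 arrays, and -0.29 ± 0.53 in pair-fed fetuses, where array 6 read -4.65. The alcohol-fed value of Slc3a2 was called without the 2 arrays with most placeholders (0.0377). Slc3a1, the heavy chain of cystine absorption, averaged 0.41 ± 0.37 in alcohol-fed and 0.24 ± 0.37 in pair-fed fetuses.

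**Figure D4:**
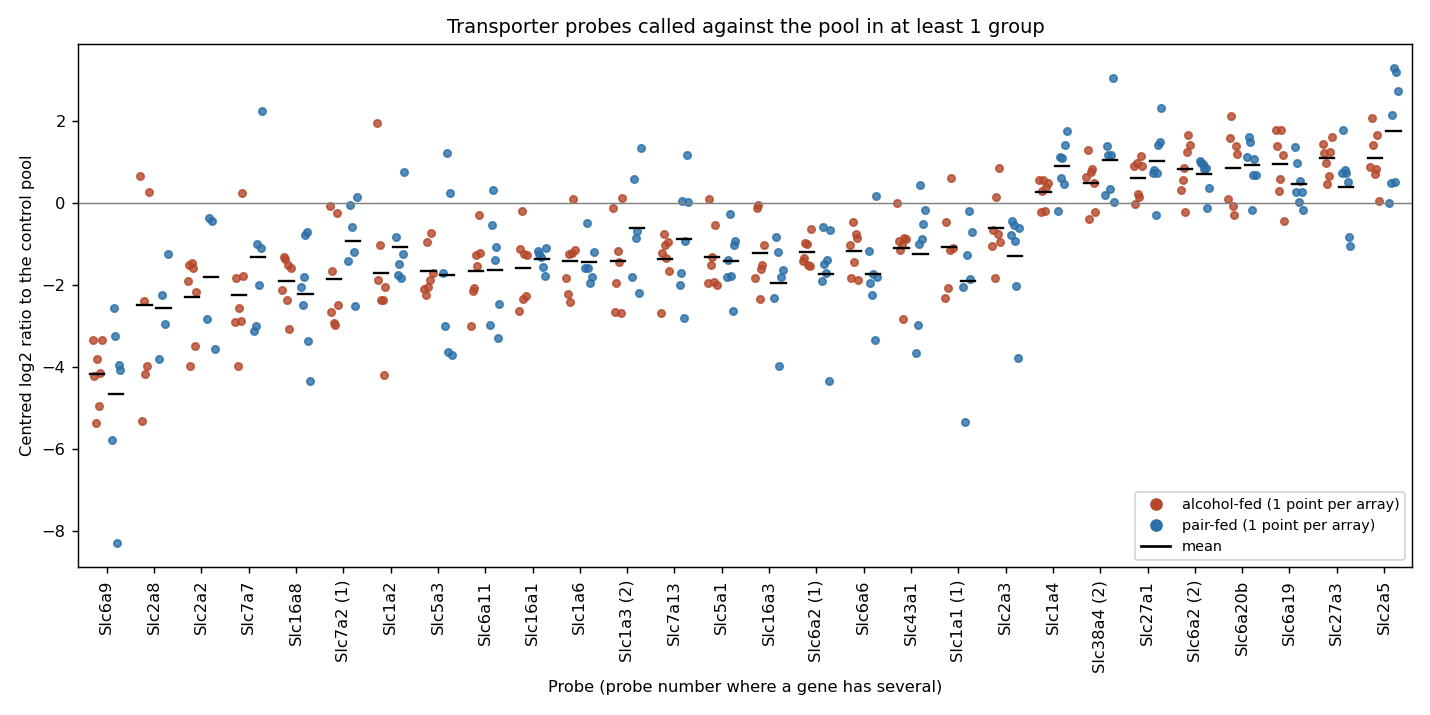
Centred log2 ratio to the pool on each array for the carrier probes called in at least 1 group, alcohol-fed arrays left of pair-fed arrays. The Slc6a9 values, all at or below -2.57, have the lowest mean of the probes shown in each group, although other probes read lower on single arrays, and the ranges of alcohol-fed and pair-fed arrays overlap for each probe.

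Fatty acid carriers of family 27 had values on all arrays and medians above 0, 0.43 in alcohol-fed and 0.32 in pair-fed fetuses. All probes with a value on all arrays had medians of 0.23 in alcohol-fed and 0.16 in pair-fed fetuses. Medians were also above 0 in both groups for family 36 (0.39 in alcohol-fed, 0.02 in pair-fed) and family 38 (0.28 in alcohol-fed, 0.09 in pair-fed). In each group 1 of 5 probes tested was higher, as were 8.02% of all probes in alcohol-fed and 7.86% in pair-fed fetuses. Slc27a3, an acyl-CoA synthetase of this family, lay between 0.47 and 1.62 in alcohol-fed fetuses (median 1.23) and between -1.05 and 1.79 in pair-fed fetuses (median 0.73). It was above 0 on all 7 alcohol-fed and on 5 of 7 pair-fed arrays. The mean was 1.09 ± 0.31 in alcohol-fed fetuses (2.13-fold higher, adjusted p = 0.0189; 0.0506 without alcohol-fed array 7) and 0.38 ± 0.31 in pair-fed fetuses (adjusted p = 0.394; 0.0434 without the 2 arrays with most placeholders). Slc27a1, the fatty acid carrier of muscle and fat, lay between -0.0260 and 1.16 in alcohol-fed fetuses (median 0.90) and between -0.30 and 2.31 in pair-fed fetuses (median 0.82), 6 of 7 arrays above 0 in each. It was higher in pair-fed fetuses at 1.03 ± 0.29 (2.04-fold, adjusted p = 0.0190) and averaged 0.61 ± 0.29 in alcohol-fed fetuses (adjusted p = 0.130). The pair-fed call ended without pair-fed array 5 or 7 (up to 0.0610) or without the 2 arrays with most placeholders (0.143). Slc27a4, the fatty acid carrier of gut and skin, averaged 0.43 ± 0.25 in alcohol-fed and 0.32 ± 0.25 in pair-fed fetuses, and Slc27a5, the bile acid and fatty acid ligase of liver, averaged -0.07 ± 0.32 in alcohol-fed and -0.36 ± 0.32 in pair-fed fetuses. Neither was called.

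Sodium-coupled neutral amino acid carriers of family 38 gave 1 call, of 8 probes tested. That probe was higher in pair-fed fetuses, as were 7.86% of all probes. Slc38a4, an imprinted carrier of placenta and liver, had 2 probes. Probe 2 was above 0 on all 7 pair-fed arrays, between 0.0150 and 3.06, and averaged 0.49 ± 0.33 in alcohol-fed fetuses and 1.05 ± 0.33 in pair-fed fetuses (2.07-fold higher, adjusted p = 0.0327). Probe 1 averaged 0.87 ± 0.36 in alcohol-fed fetuses (adjusted p = 0.0867) and 0.44 ± 0.36 in pair-fed fetuses. The probe 2 call ended without pair-fed array 2, 3, 5 or 6 (up to 0.0942), under array weights and when pair-fed arrays 6 and 7 were dropped (up to 0.0765), and probe 1 passed in alcohol-fed fetuses without alcohol-fed array 1 (0.0373) or after quantile normalization (0.0459). Slc38a2, which is induced by amino acid shortage, averaged 0.72 ± 0.28 in alcohol-fed fetuses (adjusted p = 0.0730) and 0.64 ± 0.28 in pair-fed fetuses (adjusted p = 0.114). It was above 0 on 5 of 7 arrays in each group, and its alcohol-fed value passed after quantile normalization or with array weights (down to 0.0337). Slc38a1, a glutamine carrier of neurons and placenta, averaged -0.32 ± 0.37 in alcohol-fed and -0.11 ± 0.40 in pair-fed fetuses.

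Single genes stood for the last families. Slc43a1, a carrier of branched-chain amino acids, averaged -1.10 ± 0.43 in alcohol-fed fetuses (7 of 7 arrays below 0, adjusted p = 0.0708) and -1.26 ± 0.43 in pair-fed fetuses (6 of 7 below 0, adjusted p = 0.0450, lower). The pair-fed call ended without alcohol-fed array 2, 3, 4 or 7 or pair-fed array 1, 2, 3 or 5 (up to 0.149), and after quantile normalization or with the replicate block (up to 0.0704). The alcohol-fed value passed without pair-fed array 1 (0.0429) or with array weights (0.0357). Slc36a1, the proton-coupled amino acid carrier of lysosomes and gut, had a wide spread, between -2.21 and 3.39 in alcohol-fed and between -7.28 and 5.03 in pair-fed fetuses, and was not called. The opposite-strand genes Slc36a1os and Slc7a6os (probe 1) were not called in either group, with means between -0.31 and -0.08 in alcohol-fed and between -0.01 and 0.24 in pair-fed fetuses. Besides Slc2a4, the probes with too few values to test were Slc7a3, a cationic carrier (3 alcohol-fed and 4 pair-fed arrays), Slc7a6os probe 2 (5 alcohol-fed and 3 pair-fed) and Slc43a3 (2 alcohol-fed and 5 pair-fed). Slc6a8 and Slc43a2 were not analysed here.

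The pathways that use these substrates were read from 4 lists. None of their probes was called by limma between alcohol-fed and pair-fed fetuses, and 1 had an unadjusted p under 0.05. Their counts stand beside the shares of all probes, 8.02% higher and 15.5% lower in alcohol-fed fetuses and 7.86% higher and 13.5% lower in pair-fed fetuses, and none of the lists was tested as a whole. Of 20 probes for glucose phosphorylation and insulin signalling, 1 was higher and 7 were lower than the pool in alcohol-fed fetuses, and 2 were higher and 2 lower in pair-fed fetuses. The smallest p were those of a probe for Pik3ca, a catalytic subunit of the insulin-activated lipid kinase, at 1.05 ± 0.27 in alcohol-fed fetuses (adjusted p = 0.0111), and of Tbc1d1, a brake on glucose carrier traffic, at -1.90 ± 0.27 in pair-fed fetuses (adjusted p = 8.07e-05). Tbc1d1 was also lower in alcohol-fed fetuses, at -0.95 ± 0.27 (adjusted p = 0.0179). A further Pik3ca probe was lower in alcohol-fed fetuses at -1.45 ± 0.43. The insulin receptor substrates Irs2 (higher, 1.37 ± 0.30) and Irs1 (lower, -1.72 ± 0.50) were also called in pair-fed fetuses, and were named after their values were seen. Irs1 was lower in alcohol-fed fetuses too, at -1.34 ± 0.47 (adjusted p = 0.0469), and Irs2 averaged 0.75 ± 0.30 there.

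Read against the same shares, of 18 probes for amino acid sensing 1 was higher and 2 were lower in alcohol-fed fetuses, and 2 were higher and 1 lower in pair-fed fetuses. A probe for Rictor, a subunit of the second mTOR complex, had the smallest p in both, at -2.30 ± 0.32 in alcohol-fed and -1.70 ± 0.35 in pair-fed fetuses, while its other probe averaged 0.71 ± 0.29 in alcohol-fed and 0.65 ± 0.29 in pair-fed fetuses, not called. Named after their values were seen, Ddit4, an mTOR inhibitor induced by stress, was higher in both (1.02 ± 0.28 in alcohol-fed, 0.80 ± 0.28 in pair-fed), Rheb, an mTOR activator, was lower in alcohol-fed fetuses (-0.82 ± 0.29) and Sesn2, a leucine sensor, was higher in pair-fed fetuses (1.02 ± 0.29). Of 18 probes for fatty acid binding, uptake and activation, 1 was higher and 1 lower in alcohol-fed fetuses, and 2 were higher and 0 lower in pair-fed fetuses. Fabp4, the fat cell fatty acid binding protein, was higher in alcohol-fed fetuses at 1.22 ± 0.30 (adjusted p = 0.00788), on all 7 arrays between 0.90 and 1.59, and averaged 0.81 ± 0.30 in pair-fed fetuses. Cpt2, of mitochondrial fatty acid import, was higher in pair-fed fetuses at 1.00 ± 0.28 (adjusted p = 0.0176), on all 7 arrays, and averaged 0.63 ± 0.28 in alcohol-fed fetuses. Fabp1 (lower in alcohol-fed, -1.02 ± 0.35) and Dgat2, of triglyceride synthesis (higher in pair-fed, 0.85 ± 0.27), were named after their values were seen. Of 4 probes for accessory chains, Bsg, the chaperone that brings Slc16a1 and Slc16a3 to the membrane, was higher in pair-fed fetuses at 0.97 ± 0.32 (adjusted p = 0.0381) and averaged 0.42 ± 0.32 in alcohol-fed fetuses. Nptn, a relative of Bsg, had the smallest p in alcohol-fed fetuses at 0.75 ± 0.31 and was not called (adjusted p = 0.0852).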

How the data were processed

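Deposited values were the authors' log2 ratios of 21582 probes on 14 dual-label 22K mouse arrays, in the series value table; per the labels' protocols 1 RNA per array was labelled Cy5 and the pool Cy3 with Genisphere's kit. Scanner, background correction and normalization were not given in the sources used here, and log base 2 is likely from the values. Exact 0 and the table maximum (16.61) were taken as placeholders and set missing, and each array was centred on its median (-0.433 to 0.634 as deposited). The table minimum (-9.966) was kept as a value, and whether it marks a floor was not tested. Of the values of the 79 probes, 0 stood at that minimum, but values of other probes there would enter the shares of all probes. Probes measured on 4 or more arrays in both groups were fitted in 1 limma model (version 3.58.1, R 4.3.3), group means against 0 and alcohol-fed minus pair-fed, with Benjamini-Hochberg adjustment. The fit was tested on simulated data in which 200 of 20876 probes were changed by a known fold. Of 2-fold changes 0% were recovered in each comparison. Of 4-fold changes 30% were recovered for alcohol-fed minus pair-fed, 70.5% for alcohol-fed and 71% for pair-fed against the pool. Of 8-fold changes 76% were recovered for alcohol-fed minus pair-fed, 94.5% for alcohol-fed and 90% for pair-fed against the pool. In the data 1675 probes were called higher and 3238 lower than the pool in alcohol-fed fetuses, so the adjustment was less strict there. The simulated shares against the pool therefore do not carry over to the data, where Slc6a19 was called at 0.94 in alcohol-fed fetuses.

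Symbols came from the platform annotation: 16635 probes had 1 symbol, 113 several and 4834 none. All 70 genes matched RefSeq by gene number.

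Named carriers were the 10 smallest p for the difference, the 8 highest and 8 lowest called ratios per group, the smallest p per family, 33 well-known carriers (31 with a probe), genes with several probes of which 1 was called, and from each pathway list the smallest p per group. Slc6a6, Slc6a11, Slc7a13, Slc43a3 and the opposite-strand genes fall outside this rule and were named after their values were seen. Members, lists and tests were chosen with earlier results of these data known. Same-numbered arrays of the 2 groups correlated between -0.08 and 0.18 in their deviations, so the numbers were not used as pairs.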

Additional observations from a re-analysis of the deposited data

Results flagged for a closer look

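Among 116 groups of arrays looked at for the named carriers, 8 held an array far from the others of its group, where chance at 1 in 20 gives 5.8. Slc16a10 on alcohol-fed array 6 read -3.97, below the other 6 at -0.12 to 1.40. Slc1a1 probe 1 on pair-fed array 2 read -5.34, below the other 5 at -2.06 to -0.18. Slc1a5 on alcohol-fed array 4 read -2.09, below the others at -0.96 to -0.14. Slc3a2 on pair-fed array 6 read -4.65, below the others at -0.85 to 1.92. Slc43a1 on alcohol-fed array 5 read -2.82, below the others at -1.15 to -0.0020. Slc6a2 probe 1 on pair-fed array 6 read -4.33, below the others at -1.92 to -0.58. Slc7a15 on alcohol-fed array 1 read -3.05, below the others at -0.24 to 1.50. Slc7a5 on pair-fed array 2 read 1.33, above the others at -1.65 to -0.59.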

How the results depend on the processing

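The count of carriers called between alcohol-fed and pair-fed fetuses was 0 under all settings, the replicate block included. Against the pool, calls for alcohol-fed fetuses numbered 10 in all and 6 lower, and for pair-fed fetuses 12 in all and 7 lower, when the 47 probes lacking no value were kept, which leaves fewer probes to test. Higher calls in alcohol-fed fetuses numbered 5 with values as deposited, 8 after quantile normalization, 6 with array weights and 5 without the 2 arrays with most placeholders. Higher calls in pair-fed fetuses numbered 3 with array weights and 2 without those arrays. Leaving out 1 array gave 15 to 22 calls in alcohol-fed fetuses (1 to 4 higher, 13 to 19 lower) and 13 to 22 in pair-fed fetuses (2 to 6 higher, 11 to 17 lower). Of the 20 calls in each group, 11 in alcohol-fed and 11 in pair-fed fetuses held in every such fit that tested the probe. Under every other setting that tested it, 17 held in alcohol-fed and 10 in pair-fed fetuses. The pair-fed calls held without any 1 array include Slc2a2, valued on 4 pair-fed arrays. No fit could leave out 1 of those 4, as the probe was then not tested. Replicate numbers did not pair the arrays, and not every array correlated best with its own number. With the replicate number as a block, 3 probes were higher and 17 lower in alcohol-fed fetuses, and 5 higher and 12 lower in pair-fed fetuses. With only probes valued on all arrays, family medians in alcohol-fed fetuses were 0.10 (family 1), 0.63 (family 2), 0.27 (family 5) and -0.38 (family 6), and in pair-fed fetuses 0.47 (family 1) and 0.48 (family 2). In alcohol-fed fetuses the family 2 median was -0.63 with placeholders kept and -0.61 with at least 2 arrays per group, and that of family 43 was -2.36 with at least 2 arrays per group. Apart from the shorter probe lists, the cause was not tested. A tally of the named carriers' values covered leaving out 1 array, values as deposited, quantile and scale normalization, placeholders kept and only probes valued on all arrays. Array weights, the replicate block and dropping the 2 arrays with most placeholders were among the settings not tallied. In it 2882 kept their direction and side of the threshold, 73 lost a call, 27 gained one, 129 moved and 0 called values reversed. Of those kept, 697 without 1 array and 251 under other settings were of alcohol-fed minus pair-fed, where nothing was called. The 7 arrays per group, the unstated brightness and the unstated direction of the ratio limit all of these values.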
